A study of Oryzias latipes with 6 samples.

Results

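Translation factors and aminoacyl-tRNA synthetases were examined in the axial tissue of larvae of Japanese medaka (Oryzias latipes, a small laboratory fish) exposed as embryos to a dioxin. They were matched by gene symbol: initiation factors (eif), elongation factors (eef), release factors (etf1, gspt), cytoplasmic poly(A)-binding proteins (pabpc) and synthetases (symbols ending in ars or ars2, and eprs). The symbol rule was set with earlier results of these data known. This rule found 103 of the 20459 genes of the authors' deposited table, under 97 distinct symbols. By role these were 43 initiation factor genes, 10 elongation factor genes, 6 termination and poly(A)-binding genes, 35 synthetase genes and 9 genes of regulators that carry a factor's name. The study's question was what early contact with TCDD (2,3,7,8-tetrachlorodibenzo-p-dioxin, which binds the aryl hydrocarbon receptor) does to transcripts of the axial skeleton and its surroundings in the larva. One group, called TCDD below, was held in 0.3 nM TCDD for 1 h at about 4 hours after fertilization, and the other, called DMSO, in the solvent at 0.1%. All fish belonged to the orange-red Hd-dR strain, had reached 20 days past fertilization at dissection, and gave axial tissue with bone, muscle, fat and dermis. Each group had 3 RNA libraries, and each library pooled several larvae.

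The authors' deposited table holds 1 value per gene and group, so no value per library, SD or depth can be given. Levels are in FPKM, reads scaled by gene length and library size, so that genes can be compared with each other. The only test is the authors' own, read from its q-values (p-values adjusted over all genes tested), and a gene is called changed at a q of 0.05 or less. Nothing in the labels says that the pools came from separate clutches, so these p-values may measure technical spread.

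Protein synthesis starts when initiation factors bring the small ribosomal subunit, the initiator tRNA and the capped mRNA together. The cap is bound by eIF4E, which docks on the scaffold eIF4G with the helicase eIF4A, while eIF2 carries the initiator tRNA and the large complex eIF3 holds these parts on the small subunit. Elongation factors then deliver charged tRNAs (eEF1) and move the ribosome along (eEF2), and release factors end the chain. The synthetases charge each tRNA with its amino acid, in the cytosol and, mostly through separate genes, in mitochondria. Supply of the cap complex is set by 4E-binding proteins under mTORC1 control, and supply of eIF2 by a family of stress kinases.

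Of the 103 genes, 50 were tested in the authors' deposited table (48.5%), and 3 of those 50 changed. The cap-binding gene eif4e3 and the scaffold gene eif4g2a rose in TCDD, and the histidyl-tRNA synthetase gene hars fell. Over all 3286 genes tested in the authors' deposited table, 18.2% were called, 10.7% as higher and 7.46% as lower in TCDD, against 6.00% of the translation genes. Among tested genes with a mean of at least 50 FPKM the called share in the authors' deposited table was 7.14% for translation genes (3 of 42) and 21.1% for all genes (363 of 1723). At an unadjusted p of 0.05 or less, 8 of the 50 passed in the authors' deposited table, beside 32.6% of all genes tested. At a q of 0.1 or less, 4 passed, beside 25.4% of all genes tested in the authors' deposited table. The difference between these shares was not tested.

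The tested translation genes lay closer to each other in their response than all tested genes did. They were also more abundant, with a median mean level of 117 FPKM, beside 52.6 FPKM over all tested genes. Spread at matched levels was not compared. The log2 fold changes of TCDD over DMSO of the translation genes had a median of -0.05 and quartiles of -0.33 and 0.29. Over all tested genes the median was 0.05 and the quartiles were -0.46 and 0.64. A change of at least 1 on the log2 scale was reached by 3 of the 50 translation genes (6.00%) and by 24.3% of all tested genes with a fold change. At least 0.5 was reached by 15 of the 50 (30.0%) and by 53.3% of all tested genes. The medians of log2 fold change depend on scale. The values of all genes sum to less in TCDD, and a rescaling to equal sums would raise each log2 fold change by 0.25. The muscle gene pvalb1 alone had 119442 FPKM in TCDD and 228225 FPKM in DMSO, a large part of that gap in sums. The rescaling would put the median of all tested genes at 0.29. The same rescaling would turn the sign of 15 of the 50 translation genes, and of their median. It could turn no called gene, since the smallest absolute log2 fold change among all called genes was 0.80. The distance from the median of all tested genes does not depend on that scaling, and for the translation genes it was -0.10. By role these differences from the median of all tested genes were -0.08 for initiation, 0.14 for elongation, 0.07 for termination and poly(A) binding, -0.22 for synthetases and -0.85 for the regulators.

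**Figure D1:**
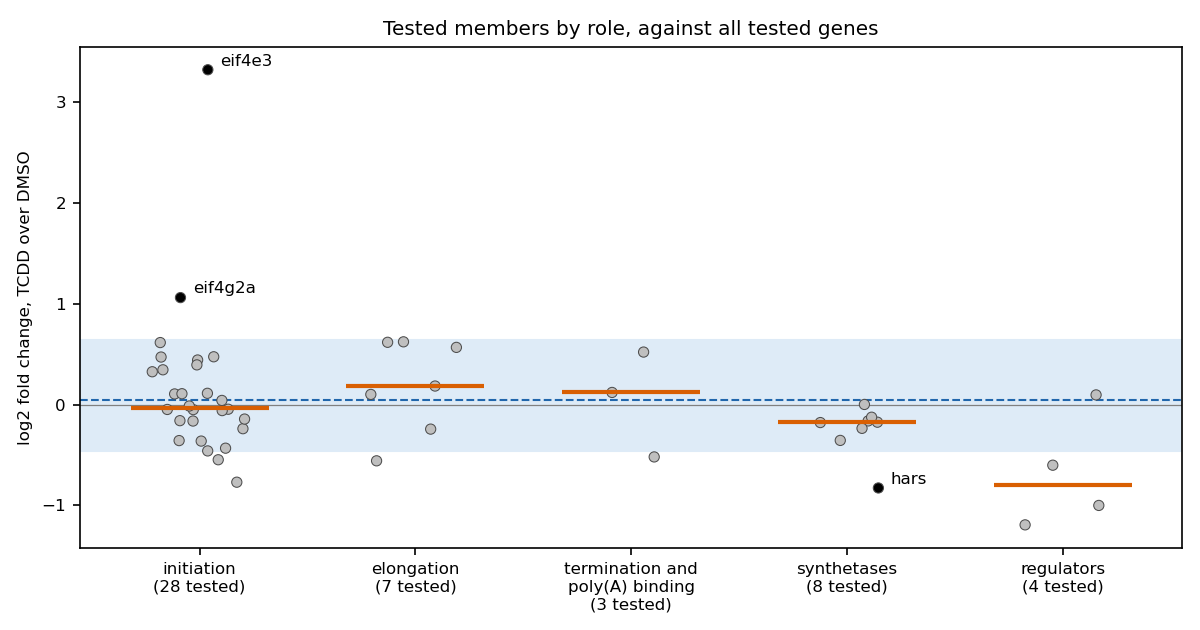
Log2 fold change of TCDD over DMSO (vertical axis) of each tested translation gene, by role. Black points are called changed, grey points are not, and orange lines are role medians. The shaded band spans the quartiles of all tested genes (-0.46 to 0.64) and the dashed line is their median. Most points lie inside the band, with eif4e3 at 3.32 far above it.

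Levels of tissue markers also differed between the groups. In the authors' deposited table the muscle markers found (5 of 9 looked for, none at 0 in either group) summed to 203023 FPKM in TCDD and 332110 FPKM in DMSO. Of the 5, 1 was called lower, mylpfa. Without the most abundant one, pvalb1, the sum was 83581 FPKM in TCDD and 103884 FPKM in DMSO. Values of ckma and ckmb were higher in TCDD, and those of tnnt3a, pvalb1 and mylpfa lower. Bone markers summed to 648 FPKM in TCDD and 2750 FPKM in DMSO in the authors' deposited table (4 of 4 tested were lower). The untested bone marker bglap was listed at 0 in TCDD. Cartilage markers summed to 144 FPKM in TCDD and 399 FPKM in DMSO in the authors' deposited table. Of the cartilage rows 4 of 4 were lower, but COL2A1A stands on separate rows and so counts more than once. Over all tested genes 7.46% were called lower. The dermal and epidermal markers summed to 5596 FPKM in TCDD and 9487 FPKM in DMSO in the authors' deposited table, and 1 of 5, krt5, was lower. Without krt5 the direction of this sum turned, with 1670 FPKM in TCDD and 1450 FPKM in DMSO in the authors' deposited table. For fat 1 of 5 markers was found in the authors' deposited table, with 539 FPKM in TCDD and 369 FPKM in DMSO, and did not pass. Of markers for tissue outside the dissection, liver summed to 63.2 FPKM in TCDD and 24.7 FPKM in DMSO, with fgb and fabp10a at 0 in both groups, in the authors' deposited table. Gut markers summed to 75.8 FPKM in TCDD and 37.6 FPKM in DMSO, with fabp2 at 0 in both groups and 1 of 2 tested markers higher, in the authors' deposited table. The brain markers snap25a (92.7 FPKM in TCDD and 47.0 FPKM in DMSO, q = 0.0788) and gfap (43.0 FPKM in TCDD and 56.6 FPKM in DMSO, q = 0.437) were not called in the authors' deposited table. The 1 blood marker found had 2.70 FPKM in TCDD and 3.86 FPKM in DMSO, in the authors' deposited table. The part of these shifts in any result below was not tested, and in bulk tissue fewer cells of a type and less RNA per cell cannot be told apart.

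Among the initiation factors, eif4e3 made the largest change of the family. This gene encodes a divergent member of the eIF4E family that in mammals binds the cap but not the 4E-binding proteins. It rose to 213 FPKM in TCDD, against 21.3 FPKM in DMSO, in the authors' deposited table (9.97-fold, log2 3.32, q = 0.00937). By fold it stood at rank 10 of the 346 called genes that were higher in TCDD and above 0 in both groups. In TCDD only 6 tested initiation factors thus lay above it, whereas in DMSO it was the lowest of the tested ones. That DMSO rank holds among tested genes only and reflects which genes were tested. Initiation genes near 21.3 FPKM in both groups, such as eif1ad (23.7 FPKM in TCDD and 21.3 FPKM in DMSO), went untested. The gene (ENSORLG00000013391) lies on chromosome 7 at 20672625 to 20676116, on a genome build not given in the sources used here, and its locus overlaps no other gene of the authors' deposited table.

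Of the remaining cap-binding genes only eif4e2 was tested. A further locus named EIF4E3 (1 of 2) had 22.3 FPKM in TCDD and 14.6 FPKM in DMSO in the authors' deposited table, without a test. The gene eif4e2, whose product competes for the cap and represses translation in mammals, had 51.3 FPKM in TCDD and 56.7 FPKM in DMSO in the authors' deposited table (q = 0.816). The classical eIF4E genes were low and untested in the authors' deposited table: eif4ea had 6.14 FPKM in TCDD and 2.21 FPKM in DMSO. Its companion eif4eb had 9.17 FPKM in TCDD and 11.2 FPKM in DMSO, and the fish paralog eif4e1c had 7.41 FPKM in TCDD and 10.8 FPKM in DMSO, in the authors' deposited table. So in the authors' deposited table eif4e3 was the only gene of the 6 named for eIF4E that passed, of 2 tested. The loci of eif4ea and eif4eb overlap other genes, so their reads are uncertain.

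The second riser was eif4g2a. It encodes a relative of the scaffold eIF4G (known in mammals as DAP5) that lacks the eIF4E-binding part and serves cap-independent initiation. It rose to 70.3 FPKM in TCDD, against 33.7 FPKM in DMSO, in the authors' deposited table (2.09-fold, log2 1.06, q = 0.0149). Its duplicate eif4g2b had 26.4 FPKM in TCDD and 35.7 FPKM in DMSO in the authors' deposited table (q = 0.357), so the duplicates were near each other in DMSO and apart in TCDD. Whether they differ in response was not tested, and the eif4g2b locus holds a small nucleolar RNA gene. The scaffolds proper were untested in the authors' deposited table: EIF4G1 had 14.1 FPKM in TCDD and 18.6 FPKM in DMSO, and EIF4G3 had 9.03 FPKM in TCDD and 10.8 FPKM in DMSO. The gene eif4g2a (ENSORLG00000007305) lies on chromosome 3 at 18530156 to 18536993, with no overlapping gene in the authors' deposited table.

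In the helicase arm of the cap complex, 0 of the 2 tested eIF4A genes passed, beside 18.2% of all genes tested. Such a small number cannot show that the arm was unchanged. The helicase gene eif4a1b had 479 FPKM in TCDD and 445 FPKM in DMSO in the authors' deposited table (q = 0.828). Its relative eif4a2 had 83.3 FPKM in TCDD and 98.3 FPKM in DMSO in the authors' deposited table (q = 0.594). Both loci hold small nucleolar RNA genes. The helicase cofactors eif4bb (91.2 FPKM in TCDD and 95.1 FPKM in DMSO, q = 0.906) and eif4h (103 FPKM in TCDD and 133 FPKM in DMSO, q = 0.528) were likewise not called in the authors' deposited table. The untested eif4a3, the related helicase of the exon junction complex, had 21.4 FPKM in TCDD and 22.4 FPKM in DMSO in the authors' deposited table.

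All 13 lettered subunits of eIF3 were in the table, where eif3s10 is the older name of subunit a and eif3s6ip that of subunit l. Of the 12 tested, 0 passed in the authors' deposited table, at a q of 0.05 or at an unadjusted p of 0.05. Over all genes tested these shares were 18.2% and 32.6%. As deposited, 6 had a higher value in TCDD and 6 a lower one in the authors' deposited table, with log2 fold changes from -0.46 to 0.47; with equal totals 10 were higher and 2 lower. The high end was eif3k, with 82.2 FPKM in TCDD and 59.2 FPKM in DMSO in the authors' deposited table (q = 0.38). Close to it was eif3bb, with 358 FPKM in TCDD and 258 FPKM in DMSO in the authors' deposited table (q = 0.26). The low end was eif3c, with 39.4 FPKM in TCDD and 54.2 FPKM in DMSO in the authors' deposited table (q = 0.3). Levels within this one complex ranged more widely than the response to TCDD. The mean of both groups ran from 46.8 FPKM for eif3c to 334 FPKM for eif3ea among tested subunits, and the untested eif3g stood at 32.9 FPKM in TCDD and 20.6 FPKM in DMSO in the authors' deposited table. The eIF3 median log2 fold change, 0.05, equalled that of all tested genes to 2 decimals.

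The initiator tRNA carrier eIF2 (3 genes tested) and its exchange factor eIF2B (1 tested) gave no call, beside 18.2% of all genes tested. With so few genes this does not show that either was unchanged. The eIF2 gamma subunit gene eif2s3 had 389 FPKM in TCDD and 402 FPKM in DMSO in the authors' deposited table (q = 0.925). The alpha subunit gene eif2s1a, whose product the stress kinases phosphorylate, had 136 FPKM in TCDD and 132 FPKM in DMSO in the authors' deposited table (q = 0.935). The beta subunit gene eif2s2 had 49.9 FPKM in TCDD and 73.0 FPKM in DMSO in the authors' deposited table (q = 0.28). Of the 5 eIF2B genes, which recharge eIF2 with GTP, only eif2b4 was tested in the authors' deposited table, with 38.6 FPKM in TCDD and 29.4 FPKM in DMSO (q = 0.464). The other 4 lay lower and untested, among them EIF2B5 with 25.6 FPKM in TCDD and 21.7 FPKM in DMSO in the authors' deposited table.

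Among initiation genes that were not called, eif1b and eif6 had the smallest q-values. The most abundant tested initiation gene was eif1b, a start-codon selection factor, with 649 FPKM in TCDD and 424 FPKM in DMSO in the authors' deposited table (log2 0.61, p = 0.0368, q = 0.129). At the other side was eif6, which keeps the large ribosomal subunit from joining too early, with 34.7 FPKM in TCDD and 59.2 FPKM in DMSO in the authors' deposited table (log2 -0.77, p = 0.0433, q = 0.143). Both passed an unadjusted p of 0.05 and neither passed after adjustment. The gene eif5, whose product triggers GTP hydrolysis by eIF2, had 60.9 FPKM in TCDD and 48.6 FPKM in DMSO in the authors' deposited table (q = 0.515). The scanning factor gene eif1axa had 52.7 FPKM in TCDD and 58.9 FPKM in DMSO in the authors' deposited table (q = 0.8). The subunit joining GTPase gene eif5b was untested, with 20.4 FPKM in TCDD and 19.2 FPKM in DMSO, as were eif1ad (23.7 FPKM in TCDD and 21.3 FPKM in DMSO) and eif2d (7.91 FPKM in TCDD and 8.89 FPKM in DMSO), in the authors' deposited table.

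**Figure D2:**
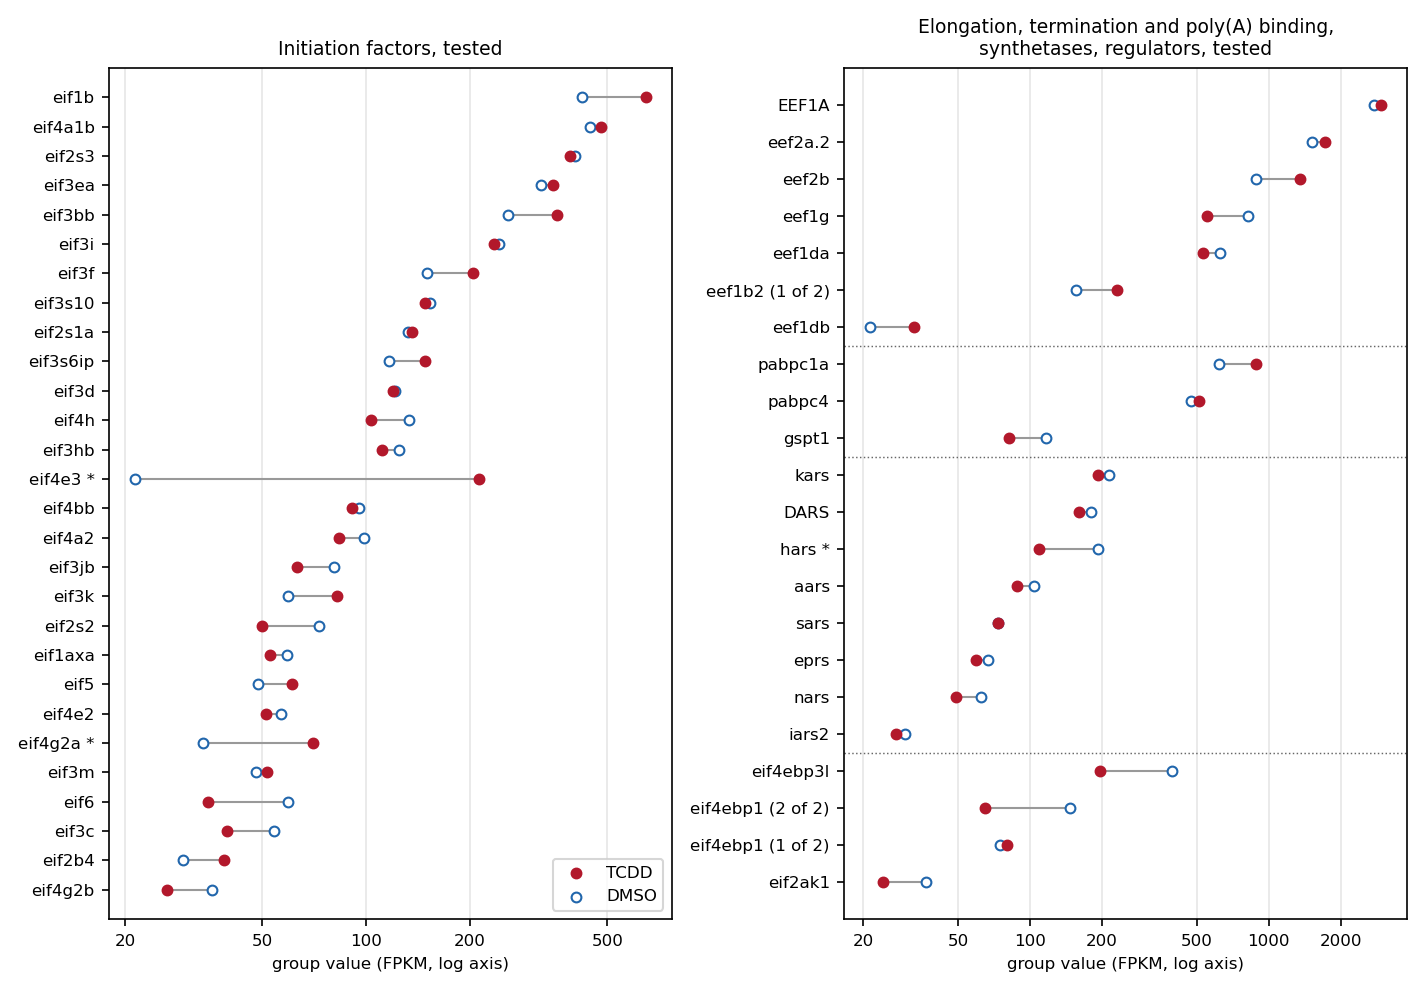
Group values in FPKM (horizontal log axis) of the 50 tested translation genes, with TCDD as filled red and DMSO as open blue points joined by a line, sorted by mean within a role. Left, initiation factors; right, from top to bottom, elongation, termination and poly(A) binding, synthetases and regulators, parted by dotted lines. A star marks the called genes eif4e3, eif4g2a and hars, and the line of eif4e3 is the longest, from 213 FPKM in TCDD to 21.3 FPKM in DMSO.

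Elongation factors were the most abundant of these transcripts, and 0 of the 7 tested passed in the authors' deposited table, beside 18.2% of all genes tested. At an unadjusted p of 0.05, 1 passed, beside 32.6% of all genes tested. So few genes do not show that the role was unchanged. EEF1A, whose product delivers charged tRNAs to the ribosome, led with 2964 FPKM in TCDD and 2764 FPKM in DMSO in the authors' deposited table (q = 0.855). The translocase gene eef2a.2 followed with 1715 FPKM in TCDD and 1510 FPKM in DMSO in the authors' deposited table (q = 0.706). Its duplicate eef2b had 1354 FPKM in TCDD and 880 FPKM in DMSO in the authors' deposited table (log2 0.62, p = 0.0452, q = 0.146). Together the elongation genes made up 0.669% of the summed FPKM in TCDD and 0.518% in DMSO in the authors' deposited table. Their own sums were closer, with 7416 FPKM in TCDD and 6810 FPKM in DMSO. The sum over all genes, by which the shares are divided, was 1.11e+06 FPKM in TCDD and 1.32e+06 FPKM in DMSO.

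As deposited, the subunits of the exchange complex that reloads eEF1A with GTP did not share a direction. The gamma subunit gene eef1g had 553 FPKM in TCDD and 814 FPKM in DMSO in the authors' deposited table (q = 0.399), at a locus that overlaps polr2gl and an unnamed gene. The beta subunit gene eef1b2 (1 of 2) had 231 FPKM in TCDD and 156 FPKM in DMSO in the authors' deposited table (q = 0.209). The delta duplicates were far apart in level: eef1da had 530 FPKM in TCDD and 627 FPKM in DMSO (q = 0.582), and eef1db 32.7 FPKM in TCDD and 21.3 FPKM in DMSO (q = 0.392), in the authors' deposited table. None of the 4 was called. The log2 fold change of eef1da, -0.24, is smaller in size than the 0.25 that equal totals would add. With equal totals, eef1g alone would have the lower value in TCDD. A second eEF1A gene, eef1a1b, was untested at 24.2 FPKM in TCDD and 28.8 FPKM in DMSO in the authors' deposited table, far below EEF1A. The gene eef1e1, which has an elongation factor's name but encodes a scaffold protein of the multisynthetase complex, was untested at 4.08 FPKM in TCDD and 8.15 FPKM in DMSO in the authors' deposited table. In the authors' deposited table the untested eif5a2 was listed at 8.06 FPKM in TCDD and at 0 in DMSO. It is placed here because eIF5A, named as an initiation factor, eases peptide bond formation during elongation.

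Termination and poly(A) binding gave 0 calls among 3 tested genes in the authors' deposited table (0 at an unadjusted p of 0.05). Beside the 18.2% called over all genes tested, 3 genes are too few to show an unchanged role. Cytoplasmic poly(A)-binding protein coats the mRNA tail and touches eIF4G, which closes the mRNA into a loop. Its main gene pabpc1a had 886 FPKM in TCDD and 618 FPKM in DMSO in the authors' deposited table (log2 0.52, q = 0.219). The gene pabpc4 had 512 FPKM in TCDD and 471 FPKM in DMSO in the authors' deposited table (q = 0.803). The duplicate pabpc1b had 26.0 FPKM in TCDD and 16.7 FPKM in DMSO, and pabpc1l, in mammals an oocyte form, 3.38 FPKM in TCDD and 1.05 FPKM in DMSO, both untested in the authors' deposited table. All 4 poly(A)-binding genes thus had the higher value in TCDD as deposited, without a call. Scaling to equal totals is no check on this, since it raises every log2 fold change. It could not turn a value already higher in TCDD. The release factor genes had the lower value there under both scalings: gspt1 (eRF3) had 81.7 FPKM in TCDD and 117 FPKM in DMSO (q = 0.22), and the untested etf1 (eRF1) 8.46 FPKM in TCDD and 10.1 FPKM in DMSO, in the authors' deposited table.

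Of the 35 synthetase genes 8 were tested and 1 changed in the authors' deposited table (12.5%, beside 18.2% of all genes tested). The gene hars, whose product charges histidine tRNA, fell to 109 FPKM in TCDD, against 193 FPKM in DMSO, in the authors' deposited table (1.77-fold lower, log2 -0.83, q = 0.0404). That change is near the smallest that was called anywhere, since the smallest absolute log2 fold change among all called genes was 0.80. It lies at rank 237 by fold of the 241 called genes that were lower in TCDD and above 0 in both groups. The gene (ENSORLG00000020605) is on ultracontig115 at 5013850 to 5023853 in the authors' deposited table, with no overlapping gene.

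The other tested synthetases lay within a narrow range. The most abundant was the lysyl gene kars, with 192 FPKM in TCDD and 215 FPKM in DMSO in the authors' deposited table (q = 0.734). The aspartyl gene DARS had 160 FPKM in TCDD and 181 FPKM in DMSO in the authors' deposited table (q = 0.703). The alanyl gene aars had 88.2 FPKM in TCDD and 104 FPKM in DMSO in the authors' deposited table (q = 0.59). The seryl gene sars was nearly equal in both groups. It had 73.4 FPKM in TCDD and 73.4 FPKM in DMSO per the authors' deposited table (q = 0.988). The bifunctional glutamyl-prolyl gene eprs had 59.2 FPKM in TCDD and 66.8 FPKM in DMSO in the authors' deposited table (q = 0.709). The asparaginyl gene nars had 48.7 FPKM in TCDD and 62.3 FPKM in DMSO in the authors' deposited table (q = 0.453). Of the 8 tested, 7 had the lower value in TCDD as deposited (2 with equal totals), with a median log2 fold change of -0.18, but scaling to equal totals would bring that median to 0.070. Measured from the median of all tested genes they stood 0.22 lower under either scaling.

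Several synthetases are held in the multisynthetase complex, and 3 of the 8 rows for its enzymes were tested (DARS, eprs and kars). Their log2 fold changes ran from -0.18 to -0.16 as deposited and turn positive with equal totals. The untested enzymes of the complex were lower in level. The glutaminyl gene qars had 15.9 FPKM in TCDD and 10.4 FPKM in DMSO in the authors' deposited table. The isoleucyl gene iars had 10.5 FPKM in TCDD and 11.0 FPKM in DMSO, and the methionyl gene mars 6.20 FPKM in TCDD and 6.70 FPKM in DMSO, in the authors' deposited table. The arginyl gene is listed as adjoining rows: rars (1 of 2) had 14.4 FPKM in TCDD and 25.1 FPKM in DMSO, and rars (2 of 2) 11.9 FPKM in TCDD and 27.1 FPKM in DMSO, in the authors' deposited table. These rows are 1337 bases apart on scaffold1279, and reads of 1 gene could be split between them.

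The untested synthetase with the widest gap was a threonyl row. The row tars (1 of 2) had 4.12 FPKM in TCDD and 24.6 FPKM in DMSO in the authors' deposited table (log2 -2.58, no test). Its neighbour tars (2 of 2), only 15 bases away on chromosome 9, had 13.4 FPKM in TCDD and 13.1 FPKM in DMSO in the authors' deposited table. Adjoining rows under 1 symbol therefore gave different ratios, and the assignment of reads to them is uncertain. Among further cytosolic genes the tyrosyl gene yars had 27.1 FPKM in TCDD and 21.8 FPKM in DMSO, the valyl gene vars 21.0 FPKM in TCDD and 23.1 FPKM in DMSO, and the glycyl gene gars 19.4 FPKM in TCDD and 16.4 FPKM in DMSO, in the authors' deposited table. The tryptophanyl gene WARS had 0.993 FPKM in TCDD and 4.40 FPKM in DMSO, and the cysteinyl gene cars was listed at 0 in TCDD and at 4.89 FPKM in DMSO, in the authors' deposited table. None of these has a test, and the reads behind such low values are unknown.

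**Figure D3:**
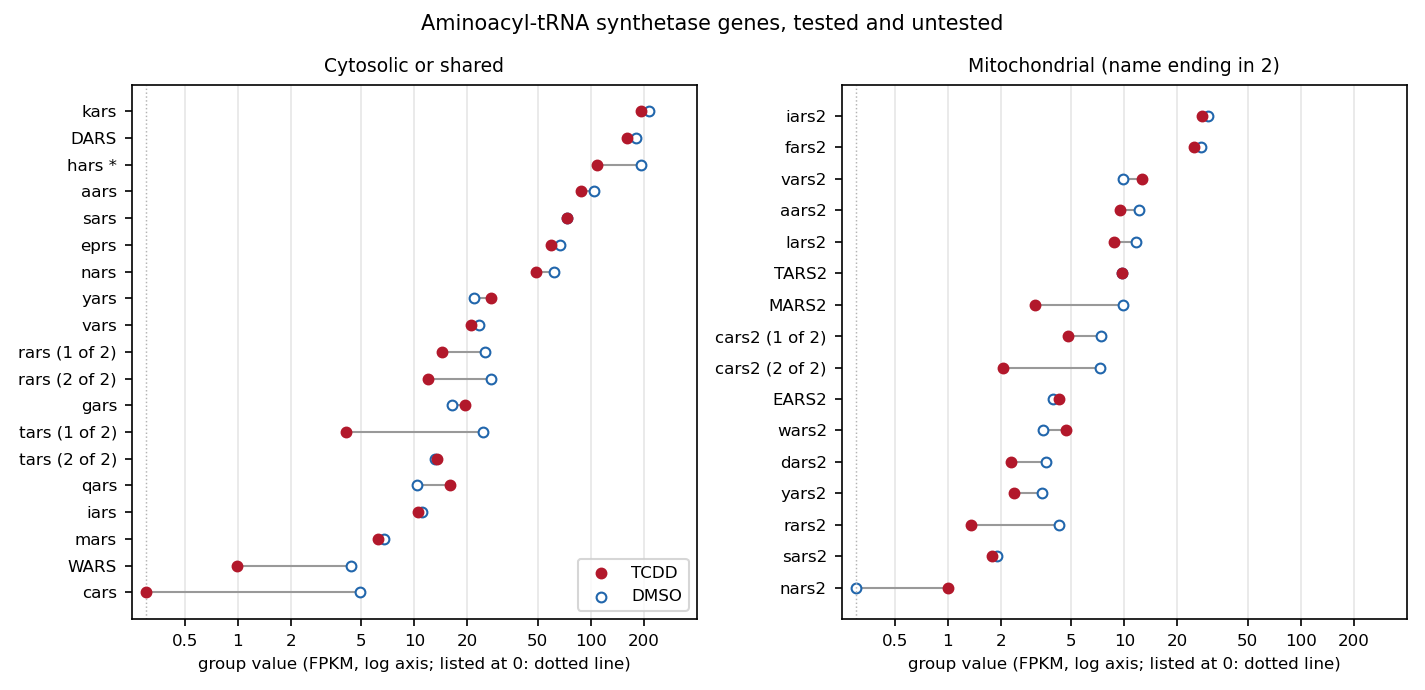
Group values in FPKM (horizontal log axis) of the 35 synthetase genes, with TCDD as filled red and DMSO as open blue points. Left, genes of cytosolic enzymes or of enzymes shared with mitochondria; right, genes of mitochondrial enzymes. A star marks hars, the called gene, at 109 FPKM in TCDD and 193 FPKM in DMSO; a value listed at 0 is drawn on the dotted line.

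Mitochondrial synthetase genes were low in level, and 1 of their 16 rows was tested. This was the isoleucyl gene iars2, with 27.5 FPKM in TCDD and 30.0 FPKM in DMSO in the authors' deposited table (q = 0.809). Next came the phenylalanyl gene fars2, untested at 24.8 FPKM in TCDD and 27.1 FPKM in DMSO in the authors' deposited table. The 15 untested rows had a median mean level of 4.67 FPKM, and 11 of them had the lower value in TCDD and 4 the higher in the authors' deposited table (8 lower and 7 higher with equal totals). Their log2 fold changes ran from -1.83 for cars2 (2 of 2) to 0.42 for wars2. The cars2 rows are 1229 bases apart on scaffold829, and reads of 1 gene could be split between them. In the authors' deposited table the asparaginyl gene nars2 was listed at 1.00 FPKM in TCDD and at 0 in DMSO. For 15 of the 16 mitochondrial rows there is thus no test.

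Of the 9 regulators that carry a factor's name, 4 were tested and 0 passed in the authors' deposited table, beside 18.2% of all genes tested. At an unadjusted p of 0.05, 2 passed, beside 32.6% of all genes tested. The 4E-binding proteins hold eIF4E off the scaffold until mTORC1 phosphorylates them. The most abundant, eif4ebp3l, had 196 FPKM in TCDD and 391 FPKM in DMSO in the authors' deposited table (log2 -0.9998, p = 0.0169, q = 0.0766). The gene eif4ebp1 (2 of 2) had 64.5 FPKM in TCDD and 147 FPKM in DMSO in the authors' deposited table (log2 -1.19, p = 0.0426, q = 0.142). Its copy eif4ebp1 (1 of 2) had 80.1 FPKM in TCDD and 74.9 FPKM in DMSO in the authors' deposited table (log2 0.10, q = 0.873). The first pair thus lay lower in TCDD by more than hars did, yet missed the threshold, and eif4ebp3l would pass at a q of 0.1. Leaving these values uncalled does not show that they were alike in both groups.

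The kinases that phosphorylate eIF2 in the integrated stress response were expressed at low levels. The haem-sensing kinase gene eif2ak1 (HRI) had 24.1 FPKM in TCDD and 36.6 FPKM in DMSO in the authors' deposited table (log2 -0.60, q = 0.21). The others were untested. The gene eif2ak4 (GCN2), which senses uncharged tRNA, had 8.01 FPKM in TCDD and 13.2 FPKM in DMSO in the authors' deposited table. The gene eif2ak3 (PERK), which senses unfolded protein in the endoplasmic reticulum, had 10.5 FPKM in TCDD and 5.56 FPKM in DMSO in the authors' deposited table. The double-stranded RNA sensor PKR is listed as eif2ak2 (1 of 2), with 7.55 FPKM in TCDD and 6.06 FPKM in DMSO, and eif2ak2 (2 of 2), with 14.6 FPKM in TCDD and 3.47 FPKM in DMSO, in the authors' deposited table. The kinase values therefore pointed different ways. The eEF2 kinase gene eef2k, whose product slows elongation, was untested at 19.3 FPKM in TCDD and 25.1 FPKM in DMSO in the authors' deposited table.

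Genes around these factors were taken from lists of the same pathway, which were chosen with earlier results of these data known. Their counts are therefore descriptive, and no difference from all tested genes was tested. In the mTORC1 list, 4 of 7 tested genes rose and 0 fell in the authors' deposited table, beside the 10.7% of all tested genes called higher. The gene deptor, an inhibitor of mTOR, rose to 66.0 FPKM in TCDD, against 20.6 FPKM in DMSO, in the authors' deposited table (3.20-fold, q = 0.00677). The gene rraga, a GTPase that recruits mTORC1 to the lysosome when amino acids are present, rose to 41.3 FPKM in TCDD, against 12.9 FPKM in DMSO, in the authors' deposited table (3.21-fold, q = 0.0236). The list's risers thus include an activator of the pathway beside inhibitors. The gene tsc1a, part of the complex that restrains mTORC1, rose to 188 FPKM in TCDD, against 96.5 FPKM in DMSO, in the authors' deposited table (q = 0.0328), at a long locus that overlaps 3 other genes. The gene akt1s1 (PRAS40 in mammals), a further mTORC1 inhibitor, rose to 171 FPKM in TCDD, against 92.7 FPKM in DMSO, in the authors' deposited table (q = 0.0464). The 3 that did not pass were larp1, which binds the mRNAs of ribosomal proteins and translation factors, rhebl1 and pdcd4b, a binding protein of eIF4A. The pathway's kinase gene mtor was untested at 12.8 FPKM in TCDD and 17.6 FPKM in DMSO in the authors' deposited table. Over the 7 tested genes the log2 fold changes had a median of 0.88, and over all tested genes of 0.05. In DMSO rraga lay below 13.7 FPKM, the lowest mean of any tested gene, so its test depended on its TCDD value. List genes near that level in both groups, such as rps6kb1a (13.4 FPKM in TCDD and 15.6 FPKM in DMSO), went untested. The 4 of 7 and the median of 0.88 may thus be partly selected by which genes were tested. The 14 untested genes of the list were split, with 6 higher in TCDD, 7 lower and 1 at 0 in both groups as deposited. For those above 0 in both groups the median log2 fold change was -0.04.

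In the list for the integrated stress response and its factor ATF4, 2 of 12 tested genes rose and 0 fell in the authors' deposited table (16.7% of those tested, beside the 10.7% of all tested genes called higher). They were ddit3, a stress transcription factor, at 165 FPKM in TCDD and 61.1 FPKM in DMSO (q = 0.0081), and slc3a2a, the heavy chain of amino acid transporters, at 98.3 FPKM in TCDD and 48.4 FPKM in DMSO (q = 0.0164), in the authors' deposited table. The glutathione-degrading enzyme gene chac1, the most abundant of the list, had 628 FPKM in TCDD and 372 FPKM in DMSO in the authors' deposited table (q = 0.0908). The row DDIT4 (3 of 3) had 42.4 FPKM in TCDD and 14.1 FPKM in DMSO in the authors' deposited table (3.00-fold, q = 0.0726). Over these 12 the median was 0.48 on the log2 scale. As deposited, 9 of the 12 had the higher value in TCDD and 3 the lower (mthfd2, pck2 and cebpb, none called). The 19 untested genes of the list were split, with 10 higher in TCDD, 8 lower and 1 at 0 in both groups. The 10 higher ones include atf3, herpud1, trib3 and slc3a2b, and the 8 lower ones asns, phgdh, psat1, aldh1l2 and slc7a1. Over the untested genes above 0 in both groups the median log2 fold change was 0.28. It leaves out 2 genes listed at 0 in TCDD only and 1 listed at 0 in DMSO only.

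**Figure D4:**
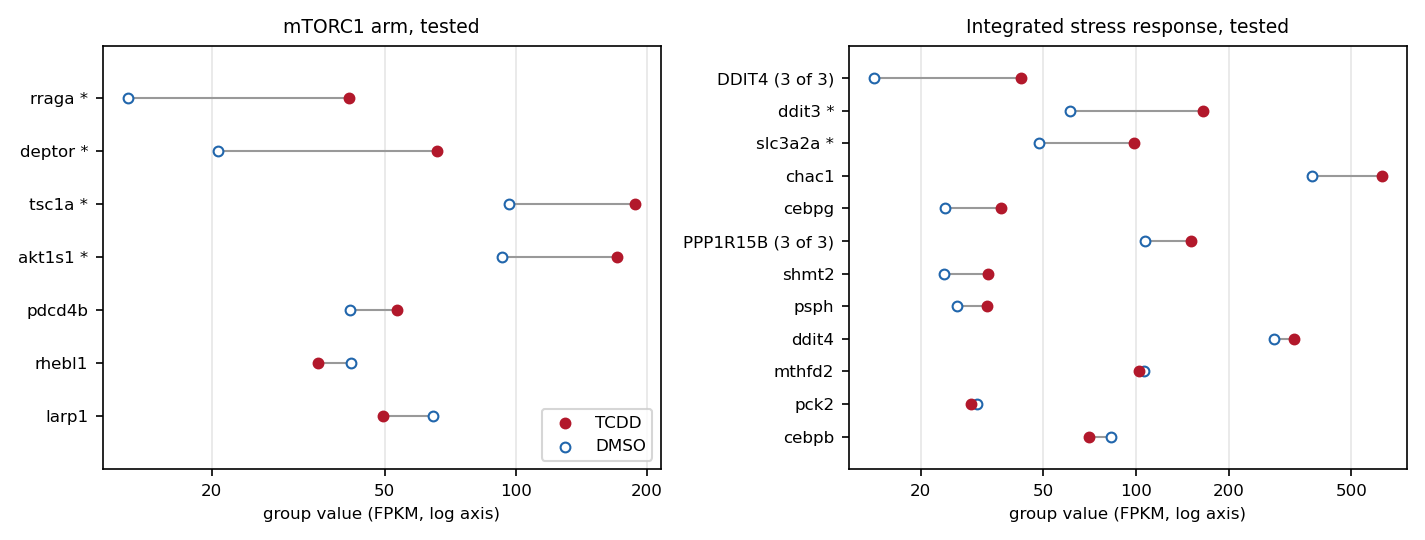
Group values in FPKM (horizontal log axis) of the tested genes of the mTORC1 list (left) and of the integrated stress response list (right), with TCDD as filled red and DMSO as open blue points, sorted by fold change. Stars mark the called genes: rraga, deptor, tsc1a and akt1s1 on the left, and ddit3 and slc3a2a on the right, all higher in TCDD.

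Cytosolic translation genes outside the name rule gave 0 calls among 19 tested in the authors' deposited table, beside 18.2% of all genes tested. At an unadjusted p of 0.05, 2 passed, beside 32.6% of all genes tested. They include the phenylalanyl synthetase subunits farsa (110 FPKM in TCDD and 118 FPKM in DMSO, q = 0.845) and farsb (30.1 FPKM in TCDD and 27.8 FPKM in DMSO, q = 0.833) in the authors' deposited table. The multisynthetase scaffold genes were aimp2, with 109 FPKM in TCDD and 101 FPKM in DMSO (q = 0.833), and aimp1, with 68.0 FPKM in TCDD and 108 FPKM in DMSO (q = 0.172, at a locus that overlaps tbck), in the authors' deposited table. The nearest to a call was gcn1l1 (1 of 2), a partner of the kinase GCN2, with 58.7 FPKM in TCDD and 34.6 FPKM in DMSO in the authors' deposited table (q = 0.0543). On the same scaffold, gcn1l1 (2 of 2) was untested, at 6.34 FPKM in TCDD and listed at 0 in DMSO. Reads of 1 gene could be split between these rows. The enzymes that build the hypusine residue of eIF5A, dhps (39.5 FPKM in TCDD and 69.7 FPKM in DMSO, q = 0.248) and dohh (81.7 FPKM in TCDD and 112 FPKM in DMSO, q = 0.322), were not called in the authors' deposited table. Mitochondrial translation factors gave 0 calls among 3 tested in the authors' deposited table (0 at an unadjusted p of 0.05), too few to set against those shares. The elongation factor gene tufm had 153 FPKM in TCDD and 151 FPKM in DMSO in the authors' deposited table (q = 0.966).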

How the data were processed

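PolyA RNA of axial tissue was sequenced on the Ion Torrent PGM, with 3 pooled libraries per group, per the labels. Bowtie2 2.2.6 and DESeq2 stand in the submitters' processing notes without a role; per the file headers the table has the layout of a Cuffdiff gene test, and the program behind its values is unsettled. The genes have Ensembl identifiers of a build not given in the sources used here. Deposited by the authors were 1 FPKM value per gene and group, read as FPKM from that layout, a test statistic (a score, not used in the results), a p-value and a q-value; how they combined libraries is not given. Of 20459 genes, 3286 were marked as tested. A Benjamini-Hochberg adjustment repeated over those genes gave the deposited q-values to within 5.11e-07.

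From the table were computed log2 fold changes of TCDD over DMSO without a pseudocount, counts and medians by role, and locus overlaps. No test across samples was possible, so the authors' q of 0.05 decides each call. Depth per library is unknown. The members, roles, related lists and naming rule were chosen with earlier results of these data known. The rule named every called member, every regulator, per role the 3 most abundant and the 2 nearest tested members that did not pass, up to 4 untested ones, and called genes of the related lists; further genes were chosen after their values were seen. Alternatives were other q thresholds, Benjamini-Yekutieli adjustment, equal totals, centring, pseudocounts of 1 and 5, a minimum mean of 50 FPKM, and leaving out copies or overlapping loci. Adjustment code was tested on simulated data. A RefSeq gene table was not used here. Python 3.11.15, pandas 2.3.3, numpy 2.4.6 and matplotlib 3.10.9 were used.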

Additional observations from a re-analysis of the deposited data

Results flagged for a closer look

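Among the 53 untested translation genes, 2 had a TCDD value of 5 FPKM or more that was 4 times the value in DMSO or higher. This limit was set with the values in view. The share of all untested genes that meet it was not counted, so meeting it does not set these genes apart. One was eif5a2, listed at 8.06 FPKM in TCDD and at 0 in DMSO by the authors' deposited table. The other was the PKR row eif2ak2 (2 of 2), with 14.6 FPKM in TCDD and 3.47 FPKM in DMSO in the authors' deposited table. With a pseudocount of 1 the log2 fold change of that row went from 2.07 to 1.80, short of the limit. In the opposite direction 1 gene met the limit, tars (1 of 2), at 4.12 FPKM in TCDD and 24.6 FPKM in DMSO in the authors' deposited table. These genes lie outside the authors' test, and the number of reads behind their values is unknown.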

How the results depend on the processing

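No paired analysis was possible because neither group is given library by library; for the same reason no library could be left out. The count of 3 called translation genes came to 1 at a q of 0.01, which 300 of all 3286 tested genes passed. This was eif4e3 (1 initiation gene, 0 synthetases, so 1 higher and 0 lower). With Benjamini-Yekutieli adjustment, which kept 257 of all tested genes, the count came to 0 in each role and direction. At a q of 0.1, which 25.4% of all tested genes passed, 2 genes were lower, the added one being the regulator eif4ebp3l (1 regulator). The related lists, examined this way after seeing the data, gave 1 stress response gene and 1 mTORC1 gene at a q of 0.01, 0 of each with Benjamini-Yekutieli adjustment, and at a q of 0.1, 4 stress response genes and 1 further cytosolic gene.

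Median log2 fold changes moved with equal totals to 0.20 (all), 0.22 (initiation), 0.43 (elongation), 0.37 (termination and poly(A) binding), 0.070 (synthetases) and -0.55 (regulators). Without overlapping loci the elongation median was 0.38; with untested genes, termination and poly(A) binding had 0.32 and regulators -0.38; at a mean of at least 50 FPKM regulators had -0.9998. All other counts stayed within 1.5 times, and all other medians within 0.1, of the reported value. Of the 40 translation genes with a fold change that the naming rule picked, 7 changed sign with equal totals and 0 with centring. A pseudocount added to both groups cannot change a sign. Over all 50 tested ones, 15 changed sign with equal totals. The 3 called genes could not, since every called gene lay further from no change than the 0.25 added by equal totals. Marker sums without a list's most abundant gene and the directions with equal totals were added after seeing the data. Low depth per gene cannot be judged, since no counts are given.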
